A study of Homo sapiens with 18 samples.

Results

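The Wnt genes of MDA-MB-231 cells, an established human line of triple-negative breast cancer (TNBC), were followed in 3D cultures in Matrigel, a basement-membrane gel, with JAG1 present, edited, added back or knocked down. JAG1 encodes Jagged1, a ligand of the Notch receptors. The genes were taken by symbol and comprised the numbered WNT, FZD, SFRP, DKK and RSPO genes, LRP5, LRP6, AXIN1, AXIN2, RNF43, ZNRF3, LGR4, LGR5, LGR6, ROR1, ROR2, PORCN, WIF1, LEF1 and the TCF7 genes. In all, 50 of the 21411 genes measured carried such a symbol, and 28 of these 50 were above 1 CPM, a read count scaled to the size of its library, in at least 9 of the 18 libraries, a level that 12757 genes passed. In such bulk RNA, fewer cells that express a gene and less RNA of it per cell cannot be told apart. The other 22 stayed below it and are counted where levels are described.

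Wnt proteins are lipid-modified by the acyltransferase PORCN in the secreting cell and bind Frizzled (FZD) receptors, together with the co-receptors LRP5 and LRP6 in the β-catenin branch or with partners such as ROR1 in the β-catenin-independent branch. A bound receptor complex stops the AXIN scaffold from marking β-catenin for degradation, and β-catenin then acts with TCF and LEF factors on target genes such as AXIN2 and LGR5. DKK1 blocks LRP5 and LRP6, and SFRP proteins and WIF1 capture the ligands. The ligases RNF43 and ZNRF3 remove Frizzled receptors from the cell surface, and R-spondins (RSPO) bound to LGR4, LGR5 or LGR6 hold them back.

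RNA of 6 conditions with 3 biological replicates each was sequenced. Jag1WT was the parental line, and Jag1KO a mixture of single-cell clones edited in JAG1 with Cas9. Jag1KO + rescue and Jag1KO + ctrl were Jag1KO cells with a JAG1 cDNA plasmid and with the empty plasmid, both grown under G418 selection. The conditions siCtrl and siJag1 were parental cells given nontargeting siRNA and a mixture of JAG1 siRNAs, so that 3 conditions descended from the parental cells as they were and 3 from the edited ones. The edited mixture, the plasmid selection and the transient transfection each differ from the parental culture in more than JAG1.

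The totals counted on genes were 10330581 to 18327890 per library. JAG1 stood at 433 to 585 CPM in Jag1WT, 116 to 205 CPM in Jag1KO, 534 to 657 CPM in Jag1KO + rescue, 110 to 147 CPM in Jag1KO + ctrl, 441 to 626 CPM in siCtrl and 131 to 203 CPM in siJag1, so its RNA followed every label. The genes VIM, CD44, EGFR, AXL, CAV1 and KRT18 were above 1 CPM in 18 of 18 libraries, and of the genes listed as low in TNBC cells ESR1 reached at most 0.136 CPM, PGR 1.77 CPM and CDH1 1.16 CPM, FOXA1 was above 1 CPM in 10 libraries, and ERBB2 (up to 60 CPM), EPCAM and GATA3 were above it in 18. The leukocyte gene PTPRC, the endothelial gene CDH5 and the fibroblast genes DCN and LUM were above 1 CPM in 0 libraries. Of the other markers of those cell types, CD14, CD68, KDR and COL1A1 were above 1 CPM in 18 libraries and PECAM1 in 17. Libraries of 1 group differed in growth state. The summed CPM of 17 cell cycle and replication genes was 612 to 953 in Jag1WT, 662 to 1037 in Jag1KO + rescue and 639 to 1147 in siCtrl. It was 689 in Jag1KO replicate 1 against 1617 and 1893 in replicates 2 and 3, 715 in Jag1KO + ctrl replicate 3 against 2053 and 2885 in replicates 1 and 2, and 2646 in siJag1 replicate 2 against 657 and 709 in the others. These 3 libraries, Jag1KO replicate 1, Jag1KO + ctrl replicate 3 and siJag1 replicate 2, lay more than 2-fold from both others of their group, and results that rest on them are given with and without them.

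The upstream sequences of 5 genes that differed among the conditions below are shown because they let a reader set the TCF/LEF core and the core bound by RBPJ, the DNA-binding partner of Notch, against the expression of these genes. Each run is the 250 bases before the most upstream RefSeq start (GRCh38.p14), 5′ to 3′ on the strand of the gene, with capitals for CTTTGA or its reverse complement TCAAAG (TCF/LEF) and for TGGGAA or TTCCCA (RBPJ). The runs are DKK1 at chr10:52314031-52314280 (plus strand), LGR4 at chr11:27472791-27473040 (minus strand), LRP5 at chr11:68312341-68312590 (plus strand), FZD1 at chr7:91264183-91264432 (plus strand) and FZD8 at chr10:35642297-35642546 (minus strand).
DKK1: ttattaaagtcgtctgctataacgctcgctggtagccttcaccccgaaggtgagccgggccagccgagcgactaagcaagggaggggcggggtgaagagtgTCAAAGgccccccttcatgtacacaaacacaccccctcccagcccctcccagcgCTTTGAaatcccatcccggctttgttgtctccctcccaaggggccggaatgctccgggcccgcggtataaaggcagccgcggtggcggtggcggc
LGR4: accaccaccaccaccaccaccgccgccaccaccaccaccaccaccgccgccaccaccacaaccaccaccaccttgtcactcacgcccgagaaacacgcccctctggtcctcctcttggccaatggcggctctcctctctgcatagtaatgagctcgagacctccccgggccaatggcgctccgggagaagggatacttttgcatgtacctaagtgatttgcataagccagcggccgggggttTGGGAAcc
LRP5: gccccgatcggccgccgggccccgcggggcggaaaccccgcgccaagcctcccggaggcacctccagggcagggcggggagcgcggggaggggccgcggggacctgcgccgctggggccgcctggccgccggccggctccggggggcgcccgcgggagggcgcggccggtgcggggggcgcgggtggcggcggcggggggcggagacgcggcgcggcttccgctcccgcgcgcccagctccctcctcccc
FZD1: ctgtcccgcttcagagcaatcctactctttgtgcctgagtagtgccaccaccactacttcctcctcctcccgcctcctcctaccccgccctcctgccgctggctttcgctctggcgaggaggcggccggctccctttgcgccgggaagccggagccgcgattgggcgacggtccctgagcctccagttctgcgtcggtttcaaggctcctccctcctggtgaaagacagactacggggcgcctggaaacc
FZD8: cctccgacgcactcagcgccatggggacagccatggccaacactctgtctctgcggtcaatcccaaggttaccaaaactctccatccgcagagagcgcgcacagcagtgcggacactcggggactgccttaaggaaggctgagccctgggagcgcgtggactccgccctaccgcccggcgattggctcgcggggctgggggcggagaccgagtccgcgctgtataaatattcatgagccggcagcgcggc
The TCF/LEF core was found in 1 of the 18 expressed Wnt genes that had such a window, DKK1, which held it once on each strand, and in 3118 of 27324 promoters of all genes (11.4%). The RBPJ core was found in 3 of the 18, LGR4, LEF1 and WNT9A, and in 5798 of all promoters (21.2%). LRP5, FZD1 and FZD8 held neither string of letters in these windows.

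The order of levels was compared per length of gene, in RPKM, which is the CPM divided by the length of the gene in kilobases. DKK1, the secreted blocker of LRP5 and LRP6, had the highest median over the 18 libraries, 38.9 RPKM (range 29.6 to 50.7), and LRP5, one of its 2 targets, the next, 34.1 RPKM (18.6 to 54.1). The receptor FZD6 followed with 22.3 RPKM (16.8 to 23.3), and the β-catenin partner TCF7L2 with 10.1 RPKM (5.35 to 14.1). Only FZD6 and TCF7L2, among neighbours in this order, had library ranges that did not overlap.

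All 8 Frizzled genes in the table were expressed, with median levels from 0.315 RPKM for FZD3 to 22.3 RPKM for FZD6. Of the 16 WNT genes, 6 passed the level, led by the β-catenin-independent ligands WNT5B (6.15 RPKM) and WNT5A (3.12 RPKM) with WNT7B (4.60 RPKM), and followed by WNT2B (0.804 RPKM), WNT3 (0.544 RPKM) and WNT9A (0.379 RPKM). Among the co-receptors and LGR or ROR receptors 5 of 7 passed, LGR4 with 6.79, ROR1 with 5.21, LRP6 with 4.92 and LGR5 with 0.288 RPKM beside LRP5, while LGR6 and ROR2 did not. The LGR family was thus led by LGR4 and the ROR family by ROR1 in these cells.

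Of the 6 secreted antagonists only DKK1 and DKK3 (0.445 RPKM) passed the level. SFRP1, DKK2, DKK4 and WIF1 did not, and SFRP1 was above 1 CPM in 3 libraries, reaching 1.44 CPM. Of the R-spondins and their ligase partners 1 of 5 passed, ZNRF3 (0.897 RPKM), and RSPO2, RSPO3 and RSPO4 did not. RNF43 was above 1 CPM in 4 libraries, with 2.10, 2.52 and 0.722 CPM in Jag1KO + ctrl, 0.391, 0.386 and 1.15 CPM in Jag1KO, and 0.454, 1.46 and 0.280 CPM in siJag1. The scaffolds AXIN1 and AXIN2 had medians of 6.95 and 1.29 RPKM, PORCN 5.31 RPKM, LEF1 2.33 RPKM and TCF7 0.161 RPKM, and TCF7L1 did not pass the level. The remaining 10 WNT genes and FZD4-DT, a transcript divergent from FZD4, did not pass it either.

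**Figure D1:**
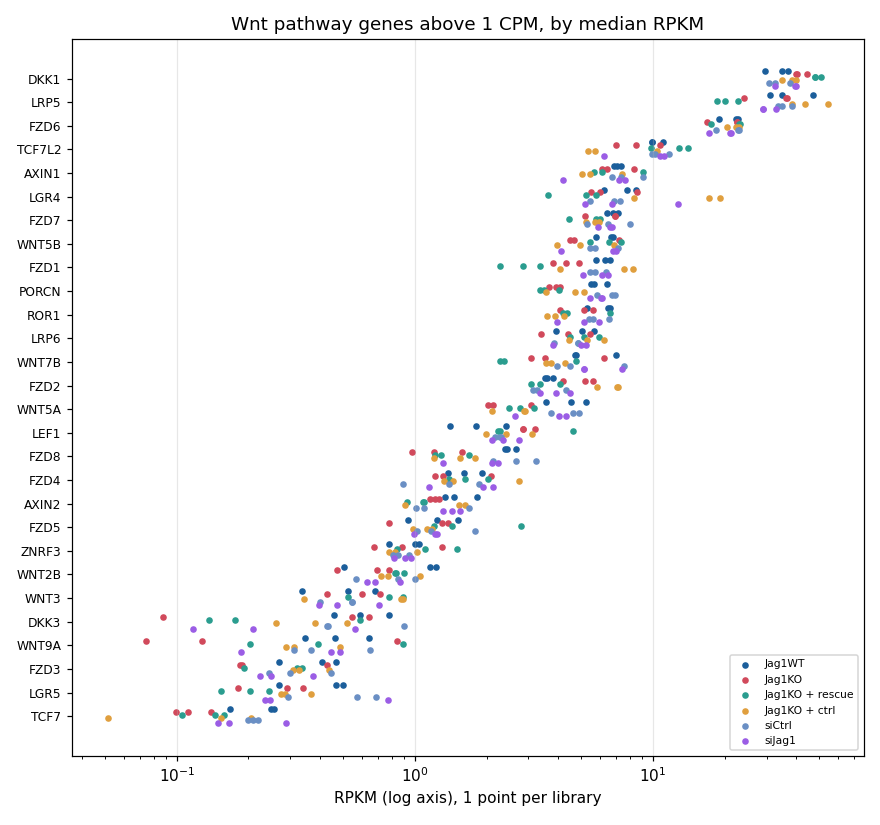
RPKM on a log axis of the 28 expressed Wnt genes, ordered by their median, with 1 point per library coloured by condition. DKK1, LRP5 and FZD6 have the highest medians, 38.9, 34.1 and 22.3 RPKM, LGR4 reaches 19.1 RPKM in its highest library, and the points of LGR4 and FZD1 spread widest among the genes of middle level.

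Across the 6 conditions, 8 of the 28 expressed Wnt genes differed by the quasi-likelihood test of edgeR over 18 libraries at a Benjamini-Hochberg FDR below 0.05, where 8.22% of all 12757 genes did. They were the ligand WNT5A (FDR 0.0246), the acyltransferase PORCN (0.00642), the receptors FZD1 (0.0140), FZD2 (0.00583) and FZD8 (0.0259), the co-receptor LRP5 (0.0103), the R-spondin receptor LGR4 (0.0406) and the antagonist DKK1 (0.0392). The other 20 did not pass, among them FZD6 (FDR 0.960), LRP6 (0.765), AXIN1 (0.745) and AXIN2 (0.396). The 8 genes showed 2 patterns by eye, one that separated the parental-derived from the edited conditions and one that set Jag1KO + ctrl against Jag1KO + rescue. Leaving out single libraries moved the count of 8 between 3, without Jag1KO + rescue replicate 3, and 9, with FZD2 and PORCN passing in 18 of 18 such fits and LGR4 in 5.

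**Figure D2:**
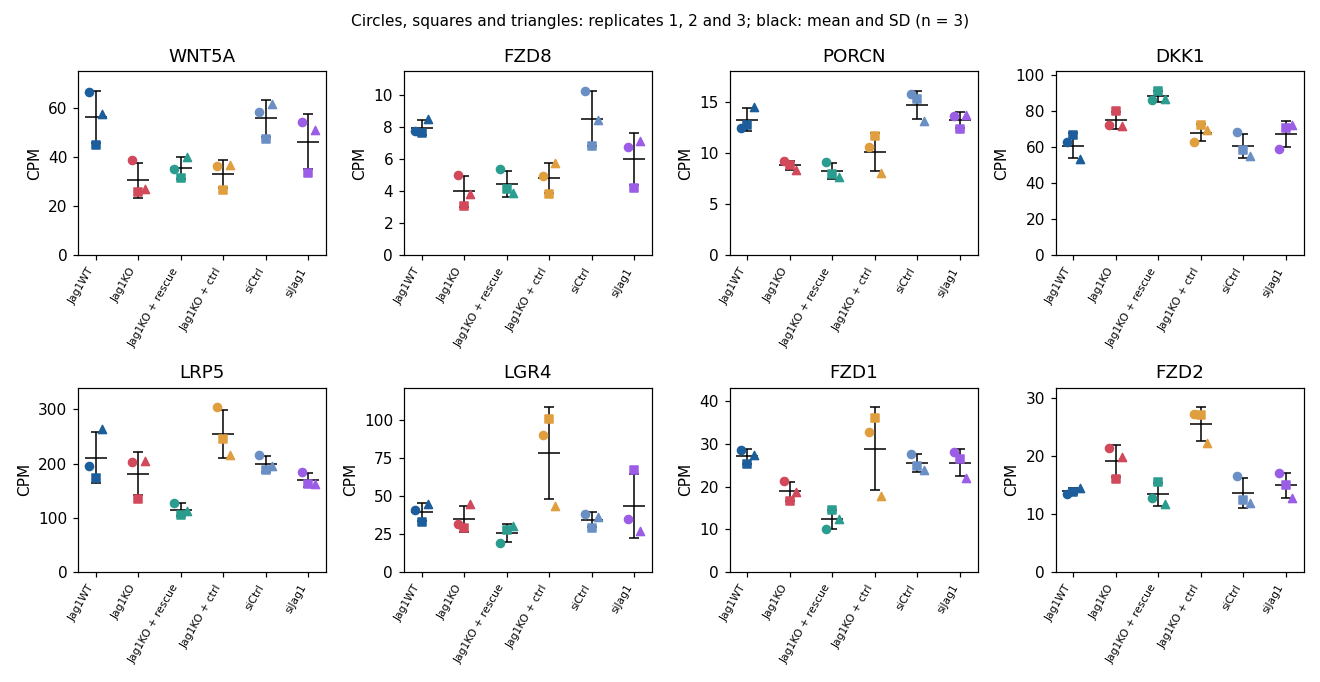
CPM of the 8 Wnt genes that differed among the conditions, with circles, squares and triangles for replicates 1, 2 and 3 and black bars for the mean and SD (n = 3). WNT5A, FZD8 and PORCN lie lower in the 3 edited conditions on average, and LRP5, LGR4, FZD1 and FZD2 lie lowest in Jag1KO + rescue and highest in Jag1KO + ctrl on average among the edited conditions.

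The comparison of Jag1WT with Jag1KO asked which Wnt genes differ when JAG1 is edited. Of 28 tested, 0 passed an FDR below 0.05 with a fold change above 1.5 in edgeR, against 0.707% of all genes. At an unadjusted p below 0.05 there were 8 of 28 (28.6%), against 8.74% of all genes, with FZD8, WNT5A, TCF7, FZD1 and PORCN higher and DKK1, FZD2 and LEF1 lower in Jag1WT. The median log2 fold change of the 28 was 0.23, 23 being positive, and that of all genes was -0.01. By DESeq2, 2 passed, FZD8 and WNT5A, where 1.82% of all genes did.

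WNT5A, a ligand of the β-catenin-independent branch, lies at chr3:55465715-55490539 on the minus strand (hg38, GENCODE 44). It was at 66.8, 45.3 and 57.5 CPM in Jag1WT and at 38.9, 25.9 and 27.0 CPM in Jag1KO, or 56.5 ± 10.8 against 30.6 ± 7.24 CPM (mean ± SD, n = 3). All 3 Jag1WT libraries were above the 3 of Jag1KO, and the log2 fold change was 0.88 (SE 0.197, FDR 0.134 in edgeR). WNT5A has an antisense gene, and the strand setting of the counting was not given in the sources used here, so reads of both may not be told apart.

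The receptor FZD8 (chr10:35638247-35642296, minus strand) was at 7.76, 7.59 and 8.48 CPM in Jag1WT and at 5.02, 3.09 and 3.82 CPM in Jag1KO. Its groups did not overlap, with a log2 fold change of 0.99 (SE 0.228, edgeR FDR 0.147). PORCN (chrX:48508959-48520814, plus strand) was at 12.5, 12.8 and 14.5 CPM in Jag1WT and at 9.20, 8.88 and 8.31 CPM in Jag1KO, also without overlap, with a log2 fold change of 0.59 (SE 0.159, FDR 0.253). The receptor FZD1 (chr7:91264433-91271326, plus strand) was at 28.6, 25.2 and 27.5 CPM against 21.2, 16.6 and 18.7 CPM, a log2 fold change of 0.52 (SE 0.142, FDR 0.262).

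DKK1 (chr10:52314281-52318042, plus strand) stood the other way, at 62.8, 66.6 and 53.5 CPM in Jag1WT and 72.5, 80.1 and 72.0 CPM in Jag1KO. The log2 fold change of DKK1 was -0.30 (SE 0.116, edgeR FDR 0.475). FZD2 and LEF1 were also below Jag1KO in every Jag1WT library, at log2 fold changes of -0.46 and -0.67. The 3 TCF and LEF genes did not lie on one side, TCF7 being at 0.94 and TCF7L2 at 0.23.

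In all, 6 Wnt genes had every Jag1WT library above every Jag1KO library (FZD8, AXIN2, WNT5A, TCF7, FZD1 and PORCN) and 3 had the reverse, or 9 of 28 where 13.8% of all genes were apart in either direction. Without Jag1KO replicate 1, edgeR called 5, WNT5A (log2 fold change 1.08), FZD8 (1.20), FZD1 (0.61), WNT7B and WNT9A, where 6.57% of all genes were called. WNT9A passed the filter there through Jag1WT alone (3.35, 1.80 and 2.41 CPM), being at 0.386 and 0.669 CPM in Jag1KO replicates 2 and 3. The library left out held WNT9A at 4.37 CPM, above every Jag1WT library. It held WNT7B at 25.6 CPM, inside the 19.4 to 28.8 CPM of Jag1WT. The 2 Jag1KO libraries left had growth sums of 1617 and 1893 CPM, above the 612 to 953 CPM of Jag1WT, and the part of growth state in these calls was not tested.

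The rescue comparison asked what adding JAG1 cDNA to edited cells changed against the empty plasmid. It called 0 of 28 Wnt genes in edgeR, where 0.00778% of all genes, JAG1 itself, passed. At an unadjusted p below 0.05 there were 6 of 28 (21.4%), against 30.7% of all genes, with LGR4, LRP5, FZD2 and FZD1 lower and DKK1 and TCF7L2 higher in Jag1KO + rescue. DESeq2 called 4, LGR4, LRP5, FZD2 and FZD1, where it called 12.2% of all genes. The share of Wnt genes at an unadjusted p below 0.05 was thus no larger than that of all genes.

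LGR4, the receptor of R-spondins (chr11:27365961-27472790, minus strand), was at 19.0, 27.5 and 30.2 CPM in Jag1KO + rescue and at 90.1, 100 and 43.7 CPM in Jag1KO + ctrl. The groups did not overlap, but Jag1KO + ctrl replicate 3 stood far below the other two of its group, and the log2 fold change was -1.61 (SE 0.322, edgeR FDR 0.104). LRP5 (chr11:68312591-68449275, plus strand) was at 128, 104 and 112 CPM against 304, 245 and 216 CPM. For LRP5 the means were 115 ± 12 and 255 ± 44.6 CPM (SD, n = 3), and the log2 fold change was -1.16 (SE 0.164, edgeR FDR 0.104).

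FZD1 was at 9.95, 14.6 and 12.4 CPM in Jag1KO + rescue and at 32.7, 36.0 and 17.7 CPM in Jag1KO + ctrl, a log2 fold change of -1.23 (SE 0.288, edgeR FDR 0.104). FZD2 (chr17:44557484-44561262, plus strand) was at 12.8, 15.6 and 11.7 CPM against 27.2, 27.1 and 22.2 CPM, a log2 fold change of -0.94 (SE 0.184, edgeR FDR 0.104). In both genes all rescue libraries lay below all libraries of the empty plasmid. DKK1 was at 86.3, 91.5 and 86.8 CPM against 62.9, 72.3 and 69.4 CPM, above in every rescue library, with a log2 fold change of 0.37 (SE 0.125, edgeR FDR 0.12).

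Counted over all members, 2 had every rescue library above the empty plasmid (DKK1 and FZD5) and 5 below (LGR4, LRP5, LGR5, FZD2 and FZD1), or 7 of 28 where 32.5% of all genes were apart. Without Jag1KO + ctrl replicate 3 the calls in edgeR were 5, LGR4 (log2 fold change -1.90), FZD1 (-1.48), LRP5 (-1.26), FZD2 (-1.03) and TCF7L2 (1.14), but 28.6% of all genes were then called. The growth sums were then 2053 and 2885 CPM against 662 to 1037 CPM in Jag1KO + rescue, and plasmid and growth state cannot be told apart in that comparison.

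**Figure D3:**
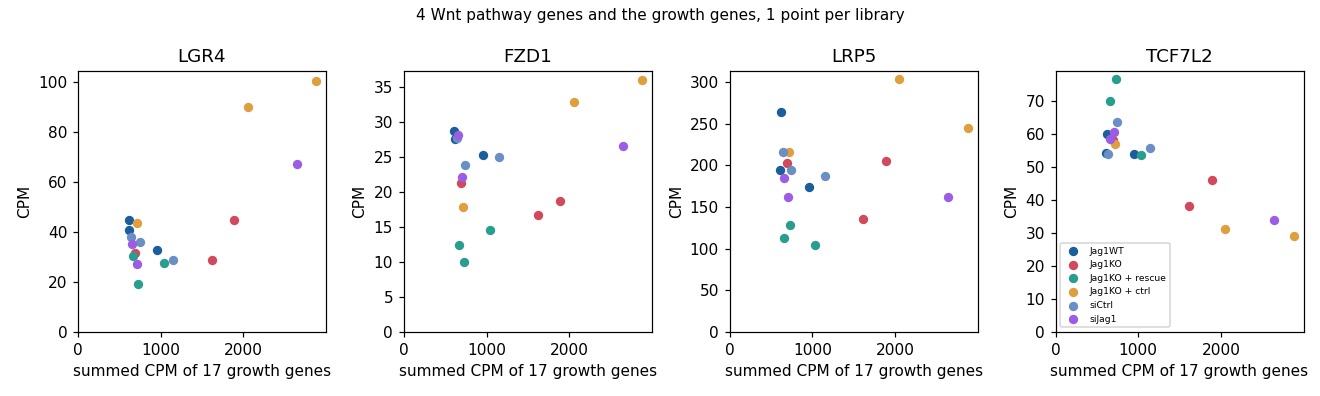
CPM of LGR4, FZD1, LRP5 and TCF7L2 in each of the 18 libraries against the summed CPM of 17 growth genes in the same library, coloured by condition. The points of LGR4 at 90.1, 100 and 67.0 CPM and the points of TCF7L2 at 31.2, 29.2 and 34.1 CPM belong to the 3 libraries with growth sums of 2053, 2885 and 2646 CPM.

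LGR4 and TCF7L2 also differed between libraries of 1 group. In siJag1, LGR4 was at 67.0 CPM in replicate 2, whose growth sum was 2646 CPM, and at 35.1 and 27.3 CPM in the others. TCF7L2 was at 34.1 CPM in that library and at 58.5 and 60.7 CPM in the others. In Jag1KO + ctrl, TCF7L2 was at 31.2 and 29.2 CPM in replicates 1 and 2 and at 57.0 CPM in replicate 3, which lay inside the 53.7 to 76.9 CPM of Jag1KO + rescue. The order of LGR4 was not that of the growth sums in the groups Jag1WT, Jag1KO and siCtrl. In siCtrl it was at 38.0, 28.7 and 36.1 CPM beside growth sums of 639, 1147 and 745 CPM, and in Jag1WT at 40.8, 32.8 and 44.7 CPM beside 612, 953 and 619 CPM. In Jag1KO it was at 31.4, 28.9 and 44.9 CPM beside 689, 1617 and 1893 CPM. The part of growth state in these levels was not tested.

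In Jag1KO + ctrl replicate 3, whose growth sum was 715 CPM, each of the 4 receptors was above its highest rescue library. LRP5 was at 216 against 128 CPM, FZD2 at 22.2 against 15.6 CPM, FZD1 at 17.7 against 14.6 CPM and LGR4 at 43.7 against 30.2 CPM. This follows from the groups being apart in these 4 genes, as they were in either direction in 32.5% of all genes, and is no further support. It sets 1 library against 3 and carries no test. The part of growth state was not tested.

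The siRNA comparison asked whether transient loss of JAG1 in parental cells gave differences. It called 0 of 28 Wnt genes in edgeR and DESeq2, against 0.0157% of all genes in edgeR, and 0 of the 28 had an unadjusted p below 0.05, against 3.85% of all genes. WNT5A was at 58.4, 47.3 and 62.0 CPM in siCtrl and at 54.6, 33.5 and 51.1 CPM in siJag1, with overlap between the groups and a log2 fold change of 0.28 (SE 0.194, edgeR FDR 0.974). FZD8 was at 10.3, 6.81 and 8.45 CPM against 6.75, 4.16 and 7.13 CPM, a log2 fold change of 0.51 (SE 0.259). The replicate numbers were taken to pair these libraries, from correlations and not from the labels. In 3 of 3 pairs both genes were higher in siCtrl, while PORCN was lower there in replicate 3 (13.2 against 13.8 CPM). How many of all genes lay on one side in 3 of 3 pairs was not counted, so this is not set against a background. With the replicate block 0 Wnt genes were called as well. FZD1 was at 27.7, 24.9 and 23.8 CPM against 28.1, 26.6 and 22.0 CPM.

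LRP5 alone had groups apart, at 216, 188 and 195 CPM in siCtrl against 185, 162 and 163 CPM in siJag1, or 1 of 28 where 10.5% of all genes were apart. The log2 fold change of LRP5 was 0.24 (SE 0.105, edgeR FDR 0.974). The test of the difference between the knockout and siRNA comparisons passed for 0 of 28 Wnt genes, where 0.125% of all genes passed. For WNT5A this difference was 0.60 (SE 0.286, FDR 1.00) and for FZD8 0.48 (SE 0.339, FDR 1.00) on the log2 scale. At an unadjusted p below 0.05 there were 0, and DESeq2 passed 0.

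**Figure D4:**
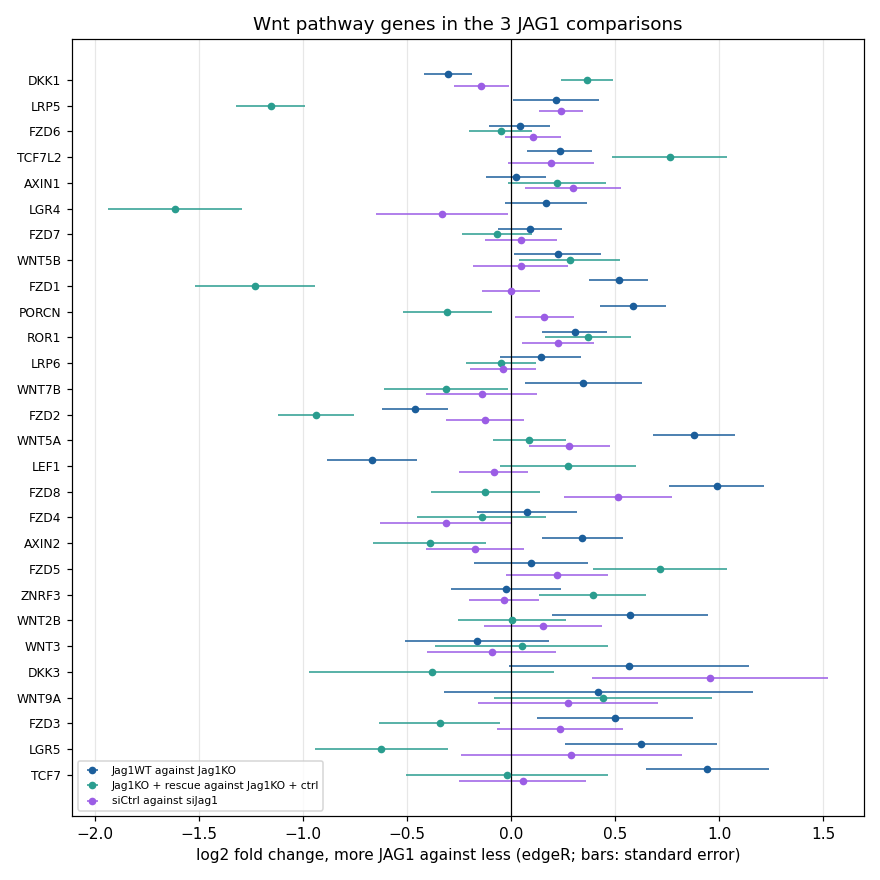
Log2 fold change with its standard error from edgeR of the 28 expressed Wnt genes, ordered by level, in Jag1WT against Jag1KO (blue), Jag1KO + rescue against Jag1KO + ctrl (green) and siCtrl against siJag1 (purple), positive where the condition with more JAG1 was higher. LRP5, LGR4 and FZD1 lie at -1.16, -1.61 and -1.23 in the rescue and at 0.22, 0.17 and 0.52 in the knockout comparison.

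The knockout and rescue comparisons, which share no library, were set against each other in the fit of 18 libraries. The difference between their log2 fold changes passed an FDR below 0.05 for 5 of 28 Wnt genes, where 6.84% of all genes passed. It was 1.77 for FZD1 (SE 0.304, FDR 0.00650), 1.40 for LRP5 (SE 0.250, FDR 0.00824), 0.92 for PORCN (SE 0.213, FDR 0.0238), 1.81 for LGR4 (SE 0.472, FDR 0.0348) and -0.64 for DKK1 (SE 0.163, FDR 0.0313). FZD1 was above in all Jag1WT against Jag1KO and below in all Jag1KO + rescue against Jag1KO + ctrl libraries, and DKK1 was the reverse. The difference for FZD1 and LRP5 passed in 18 of 18 fits that left out 1 library, for PORCN in 13, for DKK1 in 11 and for LGR4 in 10.

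FZD2 was lower with more JAG1 in the knockout comparison and in the rescue, and its mean over the 3 JAG1 comparisons was -0.52 (SE 0.0966, edgeR FDR 0.0130), below the fold change of 1.5 that was asked. With that rule 0 of 28 Wnt genes were called on the mean of the 3 comparisons, where 0.917% of all genes were. At an unadjusted p below 0.05 there were 7 (25%), against 26.5% of all genes, and DESeq2 called 1, LGR4, and 396 of all 12757 genes.

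The empty plasmid was compared with the untreated edited cells, between which JAG1 was not changed by design. Of 29 Wnt genes tested 0 were called in edgeR, where 0% of all genes were. At an unadjusted p below 0.05 there were 2, LGR4 (log2 fold change 1.14, SE 0.323) and RNF43 (1.5, SE 0.619), both higher in Jag1KO + ctrl, against 5.80% of all genes, and DESeq2 called 0. LRP5 and FZD2 had all Jag1KO + ctrl libraries above Jag1KO, or 2 of 29 where 10.1% of all genes were apart. Without Jag1KO + ctrl replicate 3, edgeR called LGR4 and FZD1, where 2.66% of all genes were called.

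Jag1KO + rescue was not tested against Jag1KO, and the levels are given side by side. LRP5 was 181 ± 39.6 CPM in Jag1KO, 255 ± 44.6 CPM in Jag1KO + ctrl and 115 ± 12 CPM in Jag1KO + rescue, and FZD1 was 18.8 ± 2.30, 28.8 ± 9.72 and 12.3 ± 2.31 CPM (SD, n = 3). The control siRNA against the untreated parental cells called 0 of 28 in edgeR, where 0% of all genes were called, with 0 Wnt genes at an unadjusted p below 0.05 and 0 by DESeq2. In that comparison 0 Wnt genes were apart, where 6.3% of all genes were.

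The 3 parental-derived conditions were compared with the 3 edited ones in the fit of 18 libraries, a comparison added after the values had been seen and sharing its libraries with those above. Of 28 Wnt genes 3 were called, where 3.03% of all genes were, and all 3 were higher in the parental-derived cells. WNT5A had a log2 fold change of 0.67 (SE 0.117, edgeR FDR 0.00195), FZD8 of 0.74 (SE 0.139, FDR 0.00326) and PORCN of 0.61 (SE 0.0866, FDR 0.000318). WNT5A averaged 56.5, 55.9 and 46.4 CPM in Jag1WT, siCtrl and siJag1, and 30.6, 35.6 and 33.3 CPM in Jag1KO, Jag1KO + rescue and Jag1KO + ctrl. Jag1KO + rescue, where JAG1 RNA was at 612 ± 67.9 CPM, thus had WNT5A near the level of Jag1KO. The edited conditions all came from the same mixture of clones and the others from the same parental line. The SE and FDR therefore measure the spread between cultures and not between independently edited lines. Editing, clone mixture and culture history cannot be told apart in this comparison.

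PORCN averaged 13.3, 14.7 and 13.3 CPM in the parental-derived and 8.80, 8.22 and 10.1 CPM in the edited conditions in the same order. FZD8 averaged 7.94, 8.51 and 6.01 CPM against 3.98, 4.45 and 4.82 CPM. Every library of PORCN in the parental-derived conditions, 12.4 CPM or more, was above every library in the edited conditions, 11.7 CPM or less. How many of all genes were apart in this way was not counted, so the separation is not set against a background. WNT5A and FZD8 overlapped through siJag1 replicate 2, at 33.5 and 4.16 CPM.

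The Wnt pathway was also read from 4 lists, of which that of the β-catenin target genes holds DKK1, LEF1, TCF7, AXIN2, LGR5 and ZNRF3, already described. Of 29 genes of the β-catenin machinery, 12 β-catenin target genes and 5 genes of secretion and extracellular modification, 0 were called by edgeR in the knockout, the rescue or the siRNA comparison. At an unadjusted p below 0.05 there were 2, 3 and 0 of these lists in the knockout comparison (8.74% of all genes), 11, 4 and 2 in the rescue (30.7% of all genes) and 3, 0 and 1 in the siRNA comparison (3.85% of all genes). The 3 target genes of the knockout comparison were LEF1, TCF7 and DKK1. DESeq2 called 2, 1 and 1 in the rescue, where it called 12.2% of all genes, and 0 in the others. Among the target genes in the knockout comparison, MYC had a log2 fold change of -0.23, CCND1 of 0.13, AXIN2 of 0.34 and CD44 of -0.12. The median of the 12 was 0.00 in the knockout comparison and 0.01 in the rescue, beside -0.01 and -0.00 for all genes.

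Of the 24 β-catenin-independent genes 1 was called in the knockout comparison, where 0.707% of all genes were. It was CELSR1, a cadherin of planar cell polarity, with a log2 fold change of 3.16 (SE 0.430, edgeR FDR 0.0185). CELSR1 was at 4.99, 5.64 and 5.48 CPM in Jag1WT and at 0.848, 0.154 and 0.764 CPM in Jag1KO, without overlap. It passed the filter on level through Jag1WT alone, and the size of its fold change rests on few reads in Jag1KO. In the rescue and siRNA comparisons 0 of the list were called, with 11 of 23 and 2 of 24 at an unadjusted p below 0.05, against 30.7% and 3.85% of all genes, and 5 and 0 called by DESeq2, which called 12.2% of all genes in the rescue. CELSR1 was below 1 CPM in every library of the rescue comparison and was not tested there. It was at 0.818, 0.495 and 0.410 CPM in Jag1KO + rescue and at 0.180, 0 and 0.481 CPM in Jag1KO + ctrl. In siCtrl it was at 4.67, 4.52 and 3.88 CPM and in siJag1 at 4.25, 1.62 and 3.22 CPM, with overlap between the groups. The lowest of these values was that of siJag1 replicate 2, the library apart in growth state. PTK7, a co-receptor of the same branch, averaged 23.6, 18.2 and 23.4 CPM in the parental-derived conditions and 38.0, 31.1 and 47.7 CPM in the edited ones. PTK7 and CELSR1 passed in the comparison of these conditions (log2 fold changes -0.83 and 3.27), or 2 of 24 where 3.03% of all genes did. In the fits of 18 libraries CELSR1 passed the filter on level through the parental-derived conditions alone. It was below 1 CPM in every edited library, so the size of its fold change rests on few reads there. On the mean of the 3 JAG1 comparisons 2 of the 24 were called, where 0.917% of all genes were. On that mean CELSR1 was higher and DAAM2 lower with more JAG1. The mean of CELSR1 takes in the rescue comparison, where it was below 1 CPM throughout and was not tested alone. DAAM2 averaged 1.08 CPM in Jag1WT and 1.46 CPM in Jag1KO, 0.436 CPM in Jag1KO + rescue and 2.48 CPM in Jag1KO + ctrl. It averaged 0.776 CPM in siCtrl and 1.88 CPM in siJag1, levels near 1 CPM that rest on few reads. Across the 6 conditions, where 8.22% of all genes differed, 4 of these 24 did, MAPK8, CELSR1, DAAM2 and PTK7, beside CTNNBIP1, CSNK1G2 and CTBP1 of the machinery, WLS, which carries Wnt proteins to the surface, and DKK1 of the target genes.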

How the data were processed

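Stranded mRNA libraries of 18 cultures were sequenced by the authors, who aligned reads to hg38 and counted uniquely mapped reads per gene; per the labels, featureCounts, edgeR 3.28.0, R 3.6.1 and MultiQC 1.5 were among their tools, and the aligner and the strand setting are not given in the sources used here. The deposited counts are whole numbers for 21411 genes. The deposited CPM, handled as a signal because the columns scaled by the authors with TMM do not sum to a fixed total, gave the levels, and the deposited RPKM are that CPM over a single length for each gene. A further 3 RPKM columns, whose names fit none of the labels, were left out. The 292 genes without a symbol took up to 0.0442% of a library's counts and were not tested.

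Counts were tested with the quasi-likelihood test of edgeR 4.0.16 (TMM) in R 4.3.3, two-sided, fitted to the 6 libraries of a pair of conditions, with a gene kept if 3 exceeded 1 CPM, or to 18 libraries, with a gene kept if 9 did. Calls had a Benjamini-Hochberg FDR below 0.05 and, except in the test among the 6 conditions and in the differences between comparisons, a fold change above 1.5. The standard error is the log2 fold change divided by the root of its F. DESeq2 1.42.0, limma 3.58.1 on log2(CPM + 1), DESeq2 size factors in edgeR, no filter, the replicate block, 1 fit of 18 libraries, no fold-change threshold and leaving out each library were alternatives. An exact permutation test of 3 against 3 libraries cannot give a p below 0.1. Replicates differed by more than counting noise (a chi-square of 6.93 to 102 per degree of freedom). On data simulated for Jag1WT against Jag1KO with 12913 genes, edgeR recovered 199 of 200 changed genes with 6 false calls. The simulation gave all genes the same dispersion and held no library apart in growth state. It changed only genes of higher level, by folds above those of the Wnt genes in that comparison. It therefore does not show how many changes of the size seen in the Wnt genes would be found.

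Deviations of libraries with the same replicate number correlated at 0.544, 0.523 and 0.264 in siCtrl and siJag1 and at 0.597, 0.715 and 0.213 in siCtrl and Jag1WT. The numbers were taken to pair libraries there, as every value was positive, which held in none of the other comparisons. In Jag1WT and Jag1KO the values were 0.634, 0.670 and -0.0103, so replicates 1 and 2 correlated as highly there and replicate 3 did not. The Wnt genes and the pathway lists were chosen with earlier results of these data known. Genes were named if called in a comparison or in the test among conditions, or if among the 2 with the highest median RPKM of their role; other pathway genes were named if called in a JAG1 comparison. Wnt genes outside this rule, and MYC, CCND1, CD44, PTK7, WLS and the pathway genes of the test among conditions, were named after their values were seen. Locations are from GENCODE 44.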

Additional observations from a re-analysis of the deposited data

Results flagged for a closer look

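A test of the difference between the knockout and the rescue comparison passed for 5 of 28 Wnt genes, where 6.84% of all genes passed. The difference of log2 fold changes was 1.77 for FZD1, 1.40 for LRP5, 0.92 for PORCN and 1.81 for LGR4, each higher in the knockout comparison, and -0.64 for DKK1. Without Jag1KO + ctrl replicate 3, the differences were 2.03 for FZD1, 1.51 for LRP5, 1.06 for PORCN, 2.10 for LGR4 and -0.65 for DKK1. Without Jag1KO replicate 1, that of LGR4 was 1.73 and no longer passed. The part of growth state and of plasmid selection in these differences was not tested.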

How the results depend on the processing

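All counts here are of the 28 expressed Wnt genes, or of 29 or 30 where more passed the filter, and 43 without it. In Jag1WT against Jag1KO 0 were called, and 2 by DESeq2 and with the replicate block, FZD8 and WNT5A in both. Leaving out single libraries gave 0 to 5. In Jag1KO + rescue against Jag1KO + ctrl 0 were called, 4 by DESeq2, 1 with no filter on low counts (LRP5), 5 in 1 fit of all 18 libraries, and 0 to 5 without single libraries. In Jag1KO + ctrl against Jag1KO the counts without single libraries were 0 to 2. For the mean of the 3 JAG1 comparisons the count was 0, and 1 by DESeq2 (LGR4), 1 with no fold-change threshold (FZD2) and 0 to 1 without single libraries. For the parental-derived against the edited conditions it was 3, and 5 by DESeq2, 5 with the replicate block, 6 with no fold-change threshold and 2 to 4 without single libraries. For the difference between the knockout and rescue comparisons it was 5, and 8 with the replicate block and 2 to 8 without single libraries, 8 without Jag1KO + ctrl replicate 3. Among the 6 conditions it was 8, and 3 to 9 without single libraries. DESeq2 called 1.82% of all genes in the knockout comparison, 12.2% in the rescue and 445 of 12757 in the parental-derived comparison. Without Jag1KO replicate 1 the knockout comparison called 6.57% of all genes, and without Jag1KO + ctrl replicate 3 the rescue called 28.6%. Where the share of all genes is not given for a setting, its count is no result about the Wnt genes in particular.

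Without all 3 libraries apart in growth genes, a setting chosen after seeing the data, more genes of all kinds were called as well. The counts were 5 in the knockout comparison (840 of 12782 genes in all), 5 in the rescue (3623 of 12690), 7 in Jag1KO + ctrl against Jag1KO (1634 of 13042), 1 on the mean (WNT9A; 839 of 12710), 6 in the parental-derived comparison (983 of 12710) and 11 for the difference (3170 of 12710). In siCtrl against siJag1, siCtrl against Jag1WT and the difference between the knockout and siRNA comparisons, 0 were called in every setting run, with the replicate block included, so the pairing of libraries by number changed no call there. The cause of these changes was not tested. Single genes were followed if called, or if at an unadjusted p below 0.05 in a comparison of a pair of conditions. Of their values, 508 kept their side of the threshold, 33 came to pass and 66 no longer passed. Among their fold changes 0 changed sign, but the genes were chosen on these same data, so this is no support. The values of the test among the 6 conditions are FDRs and have no sign. Genes near 1 CPM, such as LGR5 and TCF7, rest on few reads.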
